A study of Mus musculus with 6 samples.

Results

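The genes of DNA replication and mitosis were taken as 1 group in a promoter survey of Plakoglobin and β-catenin in mouse keratinocytes. Members were the promoter rows whose gene symbol belongs to the origin recognition complex, the MCM helicase, the replicative polymerases with their clamp and clamp loader, the E2F factors, the A, B and E cyclins, the CENP proteins of the centromere, 4 mitotic kinesins, or a short list of single cell cycle genes (Cdc6, Cdc20, Cdc25a to Cdc25c, Cdc45, Pcna, Cdk1, Cdk2, Mki67, Top2a, Plk1, Aurka, Aurkb, Bub1, Rrm2, Tyms and Birc5). The choice used names and no measured value. It found 75 promoter rows of 73 genes among the 26200 rows with values, and every one of the 75 had a value on every array. Cenpm and Rfc2 had more than 1 row each. Bub1, Cdc25b, E2f8, Mcm6 and Mki67 were among the genes with no row under these names. Orc5l and Pole1 are the names given in the files for rows of Orc5 and Pole.

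DNA of antibody-recovered chromatin was hybridised to promoter microarrays (ChIP-chip) from C57BL/6J keratinocytes, the main cells of the epidermis, harvested 4 days after a switch to high-calcium medium at confluence, which starts terminal differentiation. Both groups were cells of this kind under this treatment, and they differed in the antibody, which was against Plakoglobin on 3 arrays and against β-catenin on 3 arrays, numbered 1 to 3 within each antibody. Each array set Cy5-labelled ChIP DNA against Cy3-labelled input DNA, so input was the background of every value. No array with a mock antibody, from cells before the calcium switch or from cells lacking either protein was analysed here, and the data hold no RNA levels. The labels do not say whether arrays came from separate cultures or whether same-numbered arrays share input DNA. The p-values therefore measure at most the spread between these arrays, which may be technical.

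Plakoglobin and β-catenin are related armadillo proteins that join cadherins to the cytoskeleton at cell junctions and can enter the nucleus, where β-catenin is known as a partner of TCF/LEF factors in Wnt signalling. Replication genes are switched on before S phase largely by E2F factors, whereas many mitotic genes are switched on later, through CCAAT boxes bound by NF-Y and an element called the cell cycle homology region (CHR). Keratinocytes leave the cell cycle when they differentiate, and both sets of genes are then known to be turned down.

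The promoters that the results turn on are printed as the 250 bases before the RefSeq start site on GRCm38.p6, 5′ to 3′ in the direction of the gene. Capitals mark the motifs searched on both strands: TTTCGCGC and TTTGGCGC for E2F, TTTGAA for the CHR, CCAAT for NF-Y, and CTTTGAA and CTTTGAT for TCF/LEF. CTTTGAA contains TTTGAA, so the CHR and TCF/LEF counts overlap. ATTGG is CCAAT on the other strand. The windows were not aligned to the deposited peaks, since no source used here gives the build of their coordinates. The first 4 are the members with a deposited peak on more than 1 of the 6 arrays.
Cenpa, chr5:30666636-30666885, plus strand: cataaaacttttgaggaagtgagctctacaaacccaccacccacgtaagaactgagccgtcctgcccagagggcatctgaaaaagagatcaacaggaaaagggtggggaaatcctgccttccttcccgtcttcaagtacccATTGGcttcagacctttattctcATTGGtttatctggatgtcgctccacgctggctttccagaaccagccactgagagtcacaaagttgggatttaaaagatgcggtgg
Cenpq, chr17:40934575-40934824, minus strand: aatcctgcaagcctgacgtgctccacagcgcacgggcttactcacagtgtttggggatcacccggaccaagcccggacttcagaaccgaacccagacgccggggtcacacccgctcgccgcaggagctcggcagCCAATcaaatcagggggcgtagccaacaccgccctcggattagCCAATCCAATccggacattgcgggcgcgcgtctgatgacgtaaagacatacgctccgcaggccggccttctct
Orc3, chr4:34614943-34615192, minus strand: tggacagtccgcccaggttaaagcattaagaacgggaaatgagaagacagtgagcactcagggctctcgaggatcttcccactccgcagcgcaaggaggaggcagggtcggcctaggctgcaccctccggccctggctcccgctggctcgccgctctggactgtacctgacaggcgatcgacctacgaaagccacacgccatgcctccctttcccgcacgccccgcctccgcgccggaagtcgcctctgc
Pcna, chr2:132253181-132253430, minus strand: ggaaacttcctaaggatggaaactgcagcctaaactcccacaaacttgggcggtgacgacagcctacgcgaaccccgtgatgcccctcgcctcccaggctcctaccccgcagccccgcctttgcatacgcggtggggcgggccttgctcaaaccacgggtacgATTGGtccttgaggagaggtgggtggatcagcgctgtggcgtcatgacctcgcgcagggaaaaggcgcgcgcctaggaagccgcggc
The next 6 were chosen after their values were seen. Mcm3 and Mcm8 are the helicase-family promoters where every Plakoglobin array lay above every β-catenin array.
Mcm3, chr1:20820313-20820562, minus strand: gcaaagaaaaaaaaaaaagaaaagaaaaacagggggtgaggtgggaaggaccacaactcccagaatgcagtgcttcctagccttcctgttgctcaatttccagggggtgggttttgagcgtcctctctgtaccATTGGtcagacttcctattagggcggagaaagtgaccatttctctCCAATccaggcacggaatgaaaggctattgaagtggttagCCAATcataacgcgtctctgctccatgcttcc
Mcm8, chr2:132815891-132816140, plus strand: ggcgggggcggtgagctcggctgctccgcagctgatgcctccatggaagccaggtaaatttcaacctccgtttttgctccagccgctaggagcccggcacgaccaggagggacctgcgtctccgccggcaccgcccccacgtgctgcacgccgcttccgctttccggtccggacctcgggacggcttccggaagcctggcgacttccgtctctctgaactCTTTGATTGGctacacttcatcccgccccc
Aurka had both the highest Plakoglobin 1 value and the lowest values on both arrays numbered 3, and Rfc3 had a high value on 1 array only.
Aurka, chr2:172370571-172370820, minus strand: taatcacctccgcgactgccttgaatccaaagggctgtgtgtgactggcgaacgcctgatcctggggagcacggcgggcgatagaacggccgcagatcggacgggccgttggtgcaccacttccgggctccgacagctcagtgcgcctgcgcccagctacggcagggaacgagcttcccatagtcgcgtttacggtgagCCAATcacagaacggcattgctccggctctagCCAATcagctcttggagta
Rfc3, chr5:151651209-151651458, minus strand: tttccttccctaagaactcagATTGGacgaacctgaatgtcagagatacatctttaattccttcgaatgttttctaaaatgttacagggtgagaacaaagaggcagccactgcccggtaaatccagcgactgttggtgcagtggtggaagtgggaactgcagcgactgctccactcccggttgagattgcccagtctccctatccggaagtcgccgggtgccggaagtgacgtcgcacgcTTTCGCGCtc
Ccne1 and Cdc45 are examples of a GC-rich and an AT-rich promoter that lay on opposite sides of the median on the arrays numbered 2.
Ccne1, chr7:38107491-38107740, minus strand: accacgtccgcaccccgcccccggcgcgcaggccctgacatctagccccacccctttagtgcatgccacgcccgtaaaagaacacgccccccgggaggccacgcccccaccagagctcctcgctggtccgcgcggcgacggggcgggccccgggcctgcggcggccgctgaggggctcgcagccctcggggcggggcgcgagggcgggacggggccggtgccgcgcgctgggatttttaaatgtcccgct
Cdc45, chr16:18811973-18812222, minus strand: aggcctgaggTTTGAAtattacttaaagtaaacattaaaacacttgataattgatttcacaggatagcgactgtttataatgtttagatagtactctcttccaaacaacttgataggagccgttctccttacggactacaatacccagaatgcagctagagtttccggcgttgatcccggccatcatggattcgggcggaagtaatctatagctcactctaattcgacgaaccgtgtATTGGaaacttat

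Of the 75 rows, 63 (84%) had a RefSeq promoter, 73 promoters of 62 genes in all, since some genes have more than 1 start site. In the full window of 250 bases before to 50 after the start, an E2F motif was found in 11 member promoters (15.1%) against 0.813% of 32851 mouse promoters. The 11 belong to Cdc25a, Cdk1, E2f2, Mcm3, Mcm5, Mcm7, Mcm8, Orc1, Pola1, Pole2 and Rfc3. In the Rfc3 sequence above, TTTCGCGC starts 10 bases before the start site, whereas the E2F motifs of Mcm3 and Mcm8 were not in the printed stretch. CCAAT was found in 49 member promoters (67.1%) against 37.4% of all, in the printed sequences of Cenpq and Mcm3 at 3 places each. The CHR letters were found in 15 (20.5%) against 17.9%. A TCF/LEF motif was found in 3 member promoters, those of Aurka, Cdk1 and Mcm8, which is 4.11% against 8.65% of all promoters. The CTTTGAT of Mcm8 starts 30 bases before the start site and shares bases with a CCAAT box on the other strand that starts at 25. These matches describe letters and do not show binding, and a missing match says only that the letters are not in the window.

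Values below are log2 ratios of ChIP over input averaged over the probes of a promoter, with each array's median promoter set to 0. The arrays were not scaled to a common spread. Over all rows the quartiles were -0.32 and 0.41 on Plakoglobin 2 and -0.35 and 0.36 on β-catenin 2. They were -0.16 and 0.20 on Plakoglobin 1 and -0.14 and 0.13 on Plakoglobin 3. On β-catenin 1 they were -0.09 and 0.08, and on β-catenin 3 -0.13 and 0.14. The middle of all rows was thus spread most widely on the arrays numbered 2. With Plakoglobin 44 of the 75 rows had a mean above 0 (58.7%), against 56.6% of all rows, and the median over the members was 0.07 against 0.05. With β-catenin 40 had a mean above 0 (53.3%), against 51.4% of all rows, and the median was 0.03 against 0.01. Both shares lay near those of all promoters, so neither antibody set the group apart by its means. On single arrays the group was less even. Its median was 0.17, -0.18 and 0.02 on Plakoglobin arrays 1 to 3, with 55, 33 and 40 rows above 0. On β-catenin arrays 1 to 3 its median was 0.03, -0.10 and 0.01, with 48, 36 and 39 rows above 0. Both arrays numbered 2 therefore placed most members below the median promoter and both arrays numbered 1 placed most above it, with either antibody. Without both arrays numbered 2, left out after the data were seen, 57 rows were above 0 with Plakoglobin (76% against 55.0% of all rows) and 41 with β-catenin (54.7% against 51.7%).

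No member passed limma's test over input or between antibodies at a Benjamini-Hochberg adjusted p of 0.05, and neither did any other promoter (0% called in each comparison). The lowest adjusted p over all promoters in limma was 0.696 with Plakoglobin, 0.894 with β-catenin and 1 for the difference. At an unadjusted p under 0.05, limma placed 2 members, Mcm3 and Mcm8, above the median promoter with Plakoglobin, against 1.64% of all rows, and 0 below, against 2.14%. With the median over probes in place of the mean, the Plakoglobin values were 0.30 at Mcm3 (unadjusted limma p 0.0757) and 0.21 at Mcm8 (0.184), and neither was below 0.05. The unadjusted p also missed 0.05 at Mcm3 without Plakoglobin 2 (0.0537), Plakoglobin 3 (0.0931), β-catenin 1 (0.0612) or β-catenin 3 (0.0657), and at Mcm8 without Plakoglobin 1 (0.0996), β-catenin 1 (0.0562) or β-catenin 3 (0.0517). With β-catenin 0 members were above, against 0.26% of all rows, and 0 below, against 1.5%. For the difference 1 member, Mcm8, was higher with Plakoglobin, against 0.569% of all rows, and 0 were lower, against 0.16%. With the replicate number as a block, 2 members were above with Plakoglobin, against 1.02% of all rows, and 8 below, against 10.8%. With β-catenin 0 were then above, against 0.21% of all rows, and 8 below, against 9.21%. The block takes the shift shared by same-numbered arrays out of the error. These over-input p-values therefore leave out that part of the spread between arrays. At Pold2 with Plakoglobin the SE was 0.093 with the block and 0.37 without it. For the difference 2, Cdc6 and Mcm8, were higher with the block, against 0.71% of all rows, and 0 lower, against 0.462%. None passed the adjusted threshold. The median SE of the difference was 0.32 over the members and 0.29 over all rows.

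**Figure D1:**
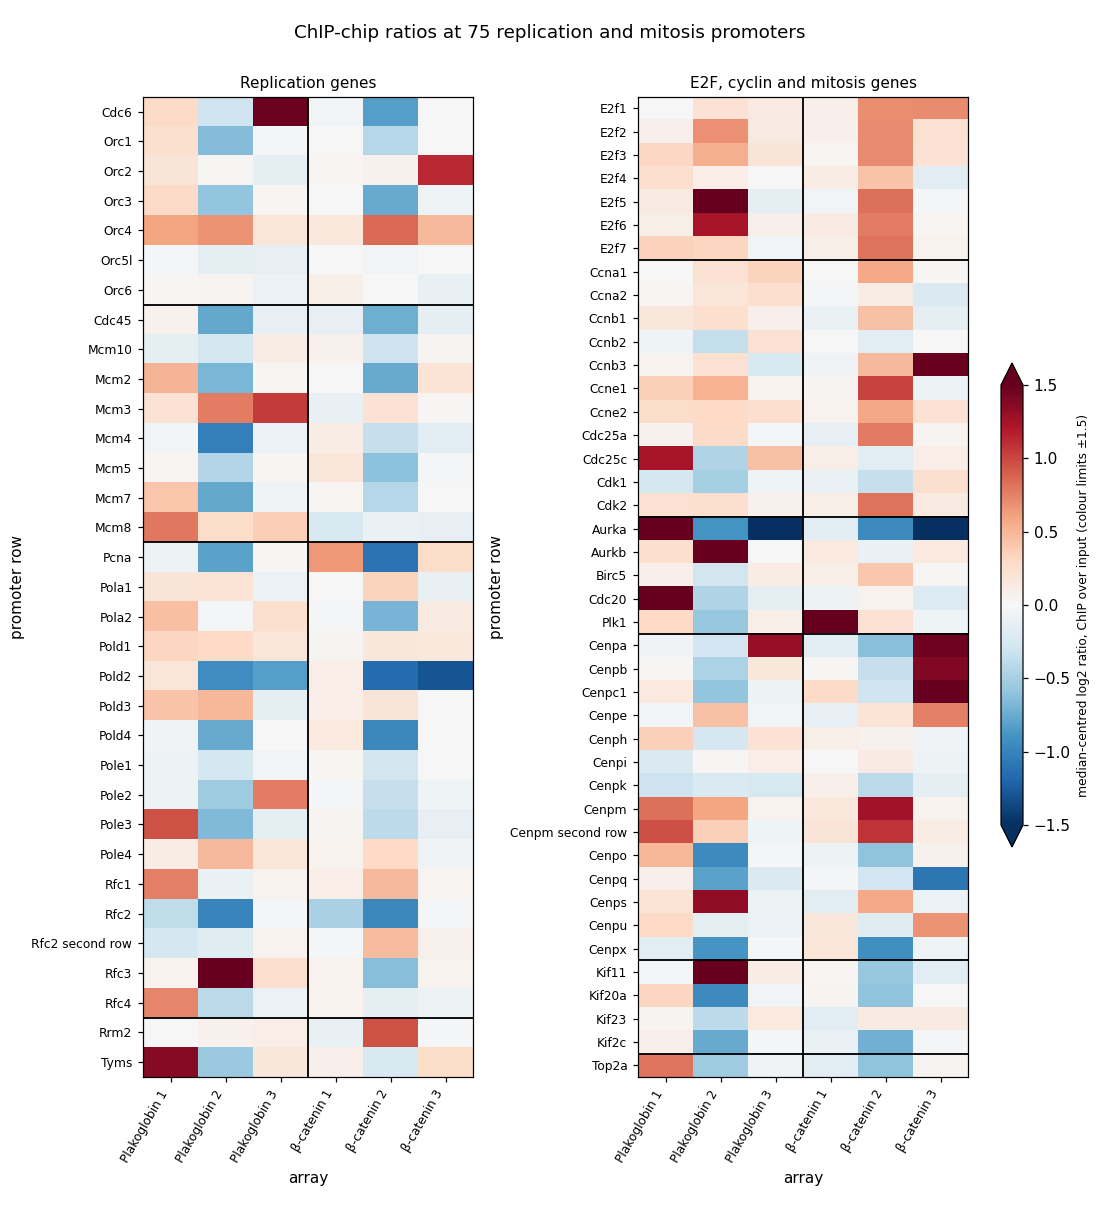
Median-centred log2 ratio of ChIP over input (colour, limits at 1.5 in either direction) for each of the 75 promoter rows (rows, ordered by role, with lines between role groups) on the 3 Plakoglobin and 3 β-catenin arrays (columns). The strongest colours sit mostly on single arrays, and the arrays numbered 2 share a pattern, red at the E2F and cyclin genes and blue at many helicase and kinesin genes.

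The origin recognition complex marks replication origins, and Cdc6 helps it to load the helicase. Of these 7 rows, 3 had a mean above 0 with Plakoglobin and 2 with β-catenin, and the group medians were -0.01 and -0.01. Orc4 was the exception in the group, with Plakoglobin values of 0.60, 0.67 and 0.18 and β-catenin values of 0.16, 0.84 and 0.49. All 6 of its values lay above 0, the means were 0.48 ± 0.26 and 0.50 ± 0.34 (SD, n = 3 each), and the antibodies overlapped. Cdc6 had Plakoglobin values of 0.29, -0.30 and 1.47 and β-catenin values of -0.04, -0.83 and -0.01. Plakoglobin was above β-catenin at all 3 numbers, by 0.33, 0.53 and 1.48, most on arrays 3, and Plakoglobin 3 had a peak at the start site. The difference was 0.78 (SE 0.47, 95% interval -0.31 to 1.87, unadjusted limma p 0.135), and with the replicate block its SE was 0.29 (unadjusted p 0.0431, adjusted p 0.89). Orc3, which had peaks with both antibodies, had Plakoglobin values of 0.28, -0.60 and 0.03 and β-catenin values of 0.00, -0.75 and -0.06. Its mean ratio was below 0 with both, although peaks were listed on Plakoglobin 1 and β-catenin 1. Orc2 had Plakoglobin values of 0.20, 0.02 and -0.14 and β-catenin values of 0.03, 0.06 and 1.14, and only β-catenin 3 stood out. Orc1, Orc5l and Orc6 had means between -0.14 and 0.00 with both antibodies.

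The MCM proteins form the helicase that unwinds DNA at the fork, with Cdc45 as its cofactor and Mcm10 as an initiation factor. Of these 8 rows, 2 had a mean above 0 with Plakoglobin (Mcm3 and Mcm8) and 1 with β-catenin (Mcm3), with medians of -0.12 and -0.14. The low medians came with the arrays numbered 2, where the group's median was -0.56 with Plakoglobin and -0.38 with β-catenin, against -0.02 to 0.14 on the other 4 arrays. Without both arrays numbered 2, an alternative chosen after the data were seen, 5 of the 8 were above 0 with Plakoglobin and 4 with β-catenin, so the count below 0 was not a property of all arrays.

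Mcm8, which belongs to a helicase of recombination repair related to the replicative one, had Plakoglobin values of 0.79, 0.27 and 0.37 and β-catenin values of -0.24, -0.10 and -0.12. All Plakoglobin values were above 0, all β-catenin values below, and the antibodies did not overlap. The means were 0.48 ± 0.27 and -0.15 ± 0.07 (SD, n = 3 each), a difference of 0.63 (SE 0.24, 95% interval 0.08 to 1.18), with an unadjusted limma p of 0.0303 and an adjusted p of 1. Its 1 deposited peak was on β-catenin 3, centred 4463 bp upstream of its start site and also listed under 3300001M20Rik. Mcm3, a subunit of the replicative helicase, had Plakoglobin values of 0.22, 0.77 and 1.05 and β-catenin values of -0.11, 0.21 and 0.02. The lowest Plakoglobin value was 0.22 and the highest β-catenin value 0.21, so the groups were only just apart. Its difference was 0.64 (SE 0.35, 95% interval -0.19 to 1.46), limma adjusted p = 1, and Plakoglobin 3 carried a peak 780 bp upstream of its start site. With the median over probes the difference was 0.23 at Mcm3 and 0.29 at Mcm8. No overlap with Plakoglobin on top was seen at 3 members, Mcm3, Mcm8 and the polymerase subunit gene Pold1, which is 4% of the members against 2.57% of all rows, and with β-catenin on top at 0, also against 2.57%.

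The other helicase genes lay close to or below the median promoter. Mcm4, a helicase subunit, had Plakoglobin values of -0.04, -1.03 and -0.09 and β-catenin values of 0.11, -0.34 and -0.16. Mcm2 had 0.51, -0.69 and 0.03 with Plakoglobin, against 0.00, -0.75 and 0.20 with β-catenin. Mcm7 had 0.42, -0.77 and -0.06 with Plakoglobin, against 0.02, -0.42 and -0.01 with β-catenin. At these 3 the lowest value of each antibody stood on the array numbered 2. Mcm5 had 0.03, -0.44 and 0.01 with Plakoglobin, against 0.18, -0.61 and -0.03 with β-catenin, and Mcm10 had -0.10 ± 0.19 and -0.07 ± 0.21. Cdc45 had Plakoglobin values of 0.06, -0.77 and -0.12 and β-catenin values of -0.12, -0.73 and -0.14, and 5 of its 6 values were below 0.

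The polymerases copy the DNA, the clamp PCNA holds them on it, and the Rfc proteins load the clamp. Of these 16 rows, 10 had a mean above 0 with Plakoglobin and 6 with β-catenin, with medians of 0.07 and -0.07. Pold1, the catalytic subunit of polymerase delta, had Plakoglobin values of 0.32, 0.30 and 0.19 and β-catenin values of 0.04, 0.17 and 0.16. All 6 values were above 0 and the antibodies did not overlap, yet its difference of 0.15 (SE 0.22, 95% interval -0.37 to 0.66) was smaller than its error. Pcna had Plakoglobin values of -0.07, -0.81 and 0.02 and β-catenin values of 0.66, -1.10 and 0.28. It was high on β-catenin 1 and lowest on both arrays numbered 2. Pold2, a small subunit of polymerase delta, had Plakoglobin values of 0.18, -0.93 and -0.82 and β-catenin values of 0.09, -1.15 and -1.30. It was the lowest member by mean with Plakoglobin (-0.52 ± 0.61), above 0 on both arrays numbered 1 and below 0 on the other 4.

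The clamp loader genes differed among themselves. Rfc3 had Plakoglobin values of 0.05, 2.45 and 0.26 and β-catenin values of 0.05, -0.64 and 0.06. Its mean of 0.92 ± 1.33 with Plakoglobin rested on array 2, and its difference of 1.09 had an SE of 0.66. One Rfc2 row had Plakoglobin values of -0.39, -0.99 and -0.02 and β-catenin values of -0.48, -0.97 and -0.01, and was the only member below 0 on all 6 arrays, which is 1 of 75 against 5.11% of all rows. The other Rfc2 row had means of -0.13 ± 0.16 and 0.17 ± 0.27, so the rows of this gene disagreed with β-catenin. Rfc1 and Rfc4 had their highest values, 0.76 and 0.74, on Plakoglobin 1.

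In the nucleotide supply, Rrm2, the small subunit of ribonucleotide reductase, had Plakoglobin values of -0.01, 0.07 and 0.10 and β-catenin values of -0.11, 0.95 and -0.02. Tyms, thymidylate synthase, had Plakoglobin values of 1.36, -0.56 and 0.17 and β-catenin values of 0.07, -0.23 and 0.28. Each stood out on 1 array, a different one for each gene.

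E2F factors switch on replication genes, with E2f1 to E2f3 known mainly as activators and E2f4 to E2f7 mainly as repressors. All 7 rows had a mean above 0 with Plakoglobin and all 7 with β-catenin, with group medians of 0.30 and 0.32. E2f2 had Plakoglobin values of 0.07, 0.69 and 0.13 and β-catenin values of 0.08, 0.71 and 0.23. E2f3 had 0.31, 0.55 and 0.20 with Plakoglobin, against 0.03, 0.71 and 0.22 with β-catenin. E2f6 had 0.09, 1.23 and 0.08 with Plakoglobin, against 0.12, 0.76 and 0.03 with β-catenin. These 3 were above 0 on all 6 arrays, and their values on the arrays numbered 2 were the highest for either antibody.

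E2f5 had Plakoglobin values of 0.14, 1.55 and -0.13 and β-catenin values of -0.05, 0.83 and -0.01, with a peak on Plakoglobin 2. E2f7 had 0.35, 0.32 and -0.04 with Plakoglobin, against 0.09, 0.81 and 0.05 with β-catenin. Both genes reached their highest β-catenin value on array 2, and E2f5 its highest Plakoglobin value too. E2f1 had Plakoglobin values of 0.00, 0.22 and 0.14 and β-catenin values of 0.08, 0.70 and 0.71, with a peak on β-catenin 3. E2f4 had Plakoglobin values of 0.25, 0.10 and -0.01 and β-catenin values of 0.11, 0.43 and -0.15. The group's array medians were 0.14, 0.55 and 0.08 with Plakoglobin, against 0.08, 0.71 and 0.05 with β-catenin. In log2 units its height came mainly from the arrays numbered 2, where all rows were also spread more widely. By percentile among all rows the genes differed. With Plakoglobin E2f3 stood at 81.9, 80.0 and 81.8 and E2f5 at 68.6, 94.3 and 26.4. Without both arrays numbered 2, 7 of the 7 were above 0 with Plakoglobin (median 0.10) and 5 of 7 with β-catenin (median 0.08). E2f4 and E2f5 then stood at -0.02 and -0.03 with β-catenin. No E2F gene passed limma's test with either antibody, and differences between the antibodies ran from -0.38 (SE 0.31) at E2f1 to 0.26 (SE 0.54) at E2f5.

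**Figure D2:**
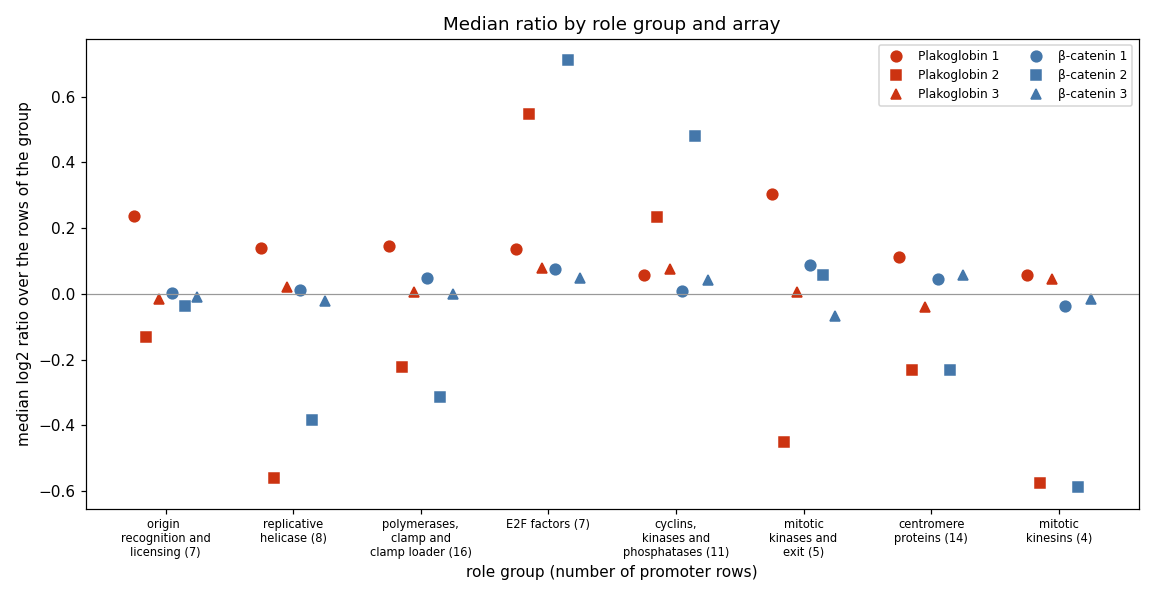
Median log2 ratio over the promoter rows of each role group with at least 4 rows (vertical axis) for each group (horizontal axis, number of rows in brackets) on each array, red for Plakoglobin and blue for β-catenin, with circles, squares and triangles for arrays 1, 2 and 3. The squares are the extreme points in most groups, up to 0.55 and 0.71 at the E2F factors and down to -0.57 and -0.59 at the mitotic kinesins. The middle of all rows was also spread more widely on the arrays numbered 2.

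Cyclins bind the kinases Cdk1 and Cdk2, and Cdc25 phosphatases activate them. Of these 11 rows, 9 had a mean above 0 with Plakoglobin and 8 with β-catenin, with medians of 0.17 and 0.20. Ccne2, an E cyclin of the entry into S phase, had Plakoglobin values of 0.27, 0.30 and 0.25 and β-catenin values of 0.05, 0.58 and 0.22. Cdk2, its kinase, had 0.23, 0.24 and 0.07 with Plakoglobin, against 0.09, 0.82 and 0.13 with β-catenin. Both were above 0 on all 6 arrays with overlapping antibodies. Ccne1 had Plakoglobin values of 0.35, 0.52 and 0.06 and β-catenin values of 0.04, 1.01 and -0.08, highest on array 2 with each antibody. Ccna2, an S phase and mitotic cyclin, had 0.03, 0.18 and 0.25 with Plakoglobin, against -0.04, 0.11 and -0.21 with β-catenin, and Ccnb1, a mitotic cyclin, had 0.17, 0.26 and 0.08 with Plakoglobin, against -0.10, 0.44 and -0.13 with β-catenin. Plakoglobin values of these cyclins were above 0 on every array, while β-catenin values were above 0 on array 2 and below on the others.

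Cdk1, the mitotic kinase, had Plakoglobin values of -0.26, -0.50 and -0.07 and β-catenin values of -0.10, -0.35 and 0.24, so 5 of its 6 values were below 0. Ccnb3, a meiotic B cyclin, had values of 0.05, 0.23 and -0.23 with Plakoglobin, against -0.05, 0.48 and 1.48 with β-catenin. Its β-catenin mean of 0.64 ± 0.78 rested on array 3, where a peak was listed at its start site. Cdc25c, which activates Cdk1, had a Plakoglobin 1 value of 1.23 against -0.45 and 0.44 on the other two.

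Aurora kinases, Plk1 and survivin (Birc5) act on spindle and chromosomes, and Cdc20 activates the anaphase-promoting complex. Of these 5 rows, 2 had a mean above 0 with Plakoglobin and 3 with β-catenin. Aurka had Plakoglobin values of 2.62, -0.89 and -1.91 and β-catenin values of -0.17, -0.95 and -2.31. It was high on Plakoglobin 1 only and low on both arrays numbered 2 and both numbered 3. Its Plakoglobin mean of -0.06 ± 2.37 hides this spread, and its difference of 1.08 had an SE of 1.14. Aurkb had 0.25, 3.64 and 0.01 with Plakoglobin, against 0.15, -0.10 and 0.14 with β-catenin, the highest single value among the members. Its 2 peaks were both on Plakoglobin 2, 929 bp upstream and 70 bp downstream of the start site. Plk1 had 0.30, -0.56 and 0.09 with Plakoglobin, against 1.79, 0.23 and -0.07 with β-catenin, with a peak 314 bp upstream on β-catenin 1. Cdc20 had 2.01, -0.45 and -0.15 with Plakoglobin, against -0.08, 0.06 and -0.20 with β-catenin, with a peak at its start site on Plakoglobin 1. At Aurkb, Plk1 and Cdc20 1 array stood above the others. Birc5 had Plakoglobin values of 0.08, -0.28 and 0.11 and β-catenin values of 0.09, 0.41 and 0.02, with overlapping antibodies.

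CENP proteins build the centromere, with Cenpa as its histone variant. Of these 14 rows, 7 had a mean above 0 with Plakoglobin and 10 with β-catenin, with medians of 0.00 and 0.16. Cenpa had Plakoglobin values of -0.06, -0.28 and 1.31 and β-catenin values of -0.16, -0.62 and 1.46. It was high on both arrays numbered 3 and below 0 on the other 4, and was the only member above 1 on more than 1 array. Cenpc1, a protein of the inner kinetochore, had 0.14, -0.59 and -0.07 with Plakoglobin, against 0.28, -0.30 and 2.78 with β-catenin, and Cenpb, which binds a centromeric DNA box, had 0.02, -0.47 and 0.17 with Plakoglobin, against 0.02, -0.34 and 1.39 with β-catenin. Both were high on β-catenin 3, each with a peak there, and not on Plakoglobin 3.

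Both rows of Cenpm were above 0 by mean with both antibodies. The first had Plakoglobin values of 0.82, 0.59 and 0.06 and β-catenin values of 0.16, 1.26 and 0.05, above 0 on all 6 arrays, and the second had 0.96, 0.35 and -0.07 with Plakoglobin, against 0.19, 1.08 and 0.11 with β-catenin. The rows share an accession and are not independent. The Plakoglobin 1 peaks of this accession were listed on chromosomes 15 and Y. Which row lies on which chromosome was not checked, so the second row need not be the same promoter. Cenpq had Plakoglobin values of 0.08, -0.80 and -0.22 and β-catenin values of -0.01, -0.28 and -1.09. Although it had peaks on more than 1 Plakoglobin array, 5 of its 6 values were below 0. Cenpx, a subunit of the kinetochore and of DNA repair complexes, had -0.16, -0.88 and -0.03 with Plakoglobin, against 0.19, -0.93 and -0.07 with β-catenin.

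Kinesins move the chromosomes and build the spindle, and Kif23 serves cell division at its end. Of these 4 rows, 1 had a mean above 0 with each antibody. Kif11, which pushes the spindle poles apart, had Plakoglobin values of -0.03, 2.79 and 0.11 and β-catenin values of 0.03, -0.57 and -0.17, with a peak 349 bp upstream on Plakoglobin 2. Its difference of 1.19 had an SE of 0.75. Kif20a and Kif2c had values on the arrays numbered 2 of -0.96 and -0.76 with Plakoglobin, against -0.61 and -0.72 with β-catenin, and lay between -0.10 and 0.33 elsewhere. Top2a, which untangles DNA before division, had Plakoglobin values of 0.80, -0.53 and -0.06 and β-catenin values of -0.16, -0.61 and 0.04.

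Single arrays gave most of the high values. There were 22 values above 1 among the members, 13 with Plakoglobin and 9 with β-catenin, spread over 21 rows. The same count was not made over all rows, so it does not set the members apart. Most members changed sign between arrays of 1 antibody. All 3 Plakoglobin values were above 0 at 16 members (21.3%, against 16.8% of all rows) and below at 8 (10.7%, against 16.3%). All 3 β-catenin values were above 0 at 16 (21.3%, against 16.3% of all rows) and below at 8 (10.7%, against 15.5%). Set by number, Plakoglobin exceeded β-catenin on all 3 pairs at 11 members (14.7%, against 10.6% of all rows). It was lower on all 3 at 7 (9.33%, against 12.3% of all rows). On all 6 arrays 8 rows were above 0, 10.7% of the members against 6.99% of all rows, namely Ccne2, Cdk2, Cenpm, E2f2, E2f3, E2f6, Orc4 and Pold1. The largest of their lowest values was at Orc4 (0.16).

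The arrays numbered 2 ordered the members alike. The Spearman correlation between Plakoglobin 2 and β-catenin 2 over the 75 rows was 0.73, and 64 rows (85.3%) lay on the same side of the median on both, against 65.7% of all rows. For the arrays numbered 1 the correlation was 0.11 and for those numbered 3 it was 0.27. Over all 26200 rows the 3 correlations were 0.35, 0.38 and 0.41, so at the members the number 2 arrays were more alike than over all promoters and the arrays numbered 1 and those numbered 3 less. On both arrays numbered 2, 29 members were above 0 (32.8% of all rows) and 35 below (32.8% of all rows). Rows are not independent, the points of a pair share whatever the number stands for, and these correlations are descriptions. Between arrays of 1 antibody the correlation over the members ran from -0.04 to 0.28 for Plakoglobin and from 0.12 to 0.19 for β-catenin.

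**Figure D3:**
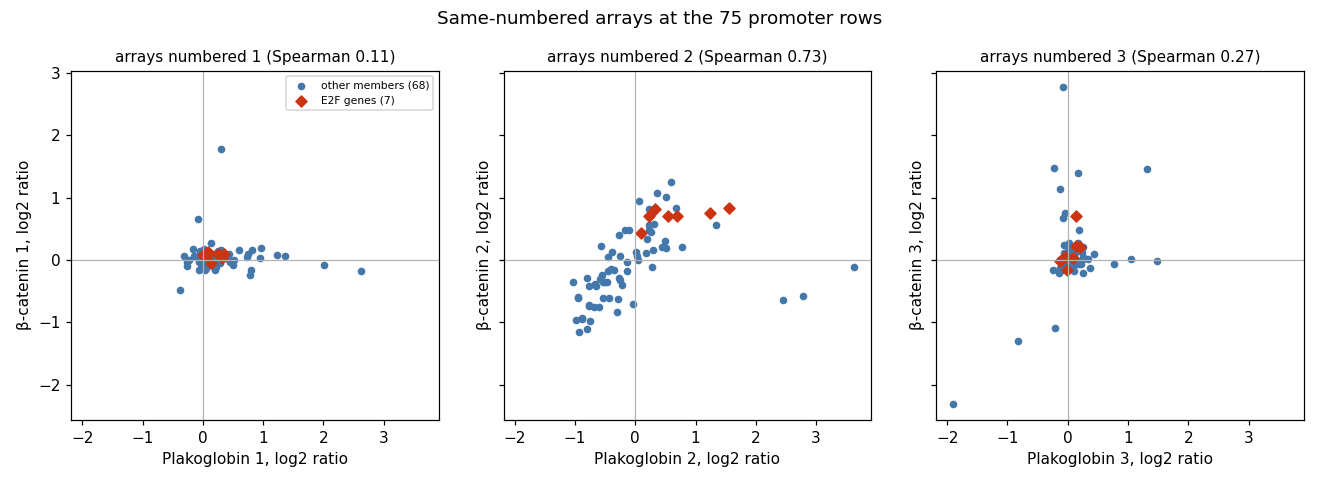
β-catenin against Plakoglobin log2 ratio at the 75 promoter rows for the arrays numbered 1, 2 and 3, 1 panel each, with the 7 E2F genes as red diamonds and the 68 others as blue circles. The points of the middle panel follow a rising band (Spearman 0.73), with the E2F genes at its upper end, and those of the other panels lie near 0 with single points far out (0.11 and 0.27).

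Base composition moved with the values on the arrays numbered 2. The GC content of the RefSeq promoters of the members ran from 38.7% to 77.3%, with a median of 60.2% against 57.7% over all rows with a promoter. Its Spearman correlation with the ratio over the 63 rows was 0.30 on Plakoglobin 2 and 0.48 on β-catenin 2. On the other arrays it was 0.17 on Plakoglobin 1, 0.15 on Plakoglobin 3, 0.27 on β-catenin 1 and -0.01 on β-catenin 3. Over 11325 rows of all genes it was 0.37, 0.08 and 0.22 with Plakoglobin, against 0.22, 0.26 and 0.21 with β-catenin. The 31 rows above the members' median GC had medians of 0.23 and 0.34 on the number 2 arrays, and the 32 rows at or below it had -0.47 and -0.37. Median GC was 68% for the 5 E2F genes with a promoter and 57.3% for the 7 helicase genes, the highest against one of the lowest groups. Other groups did not follow this order. Median GC was 63% for the polymerase group, 62.7% for the origin group and 60.7% for the kinesins. Their medians over all rows were -0.22, -0.13 and -0.57 on Plakoglobin 2, and -0.31, -0.04 and -0.59 on β-catenin 2. E2f2, at 55.7% GC, had 0.69 and 0.71 on these arrays. Ccne1, printed above at 76% GC, and Cdc45, at 40.4%, lay at 1.01 and -0.73 on β-catenin 2. The part of GC in the values was not tested, and the 63 points share each array's labelling and scan.

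**Figure D4:**
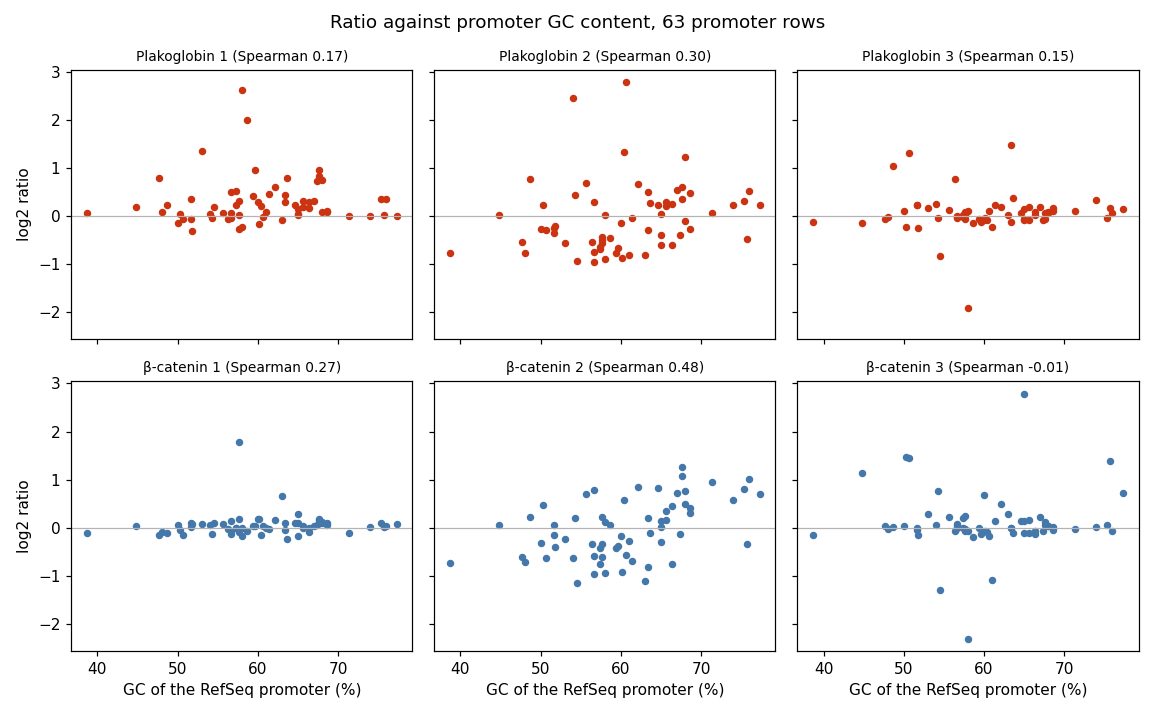
Log2 ratio of each of the 63 promoter rows with a RefSeq promoter (vertical axis) against the GC content of that promoter in percent (horizontal axis), 1 panel per array, Plakoglobin in red and β-catenin in blue. The rise is clearest on β-catenin 2 (Spearman 0.48) and absent on β-catenin 3 (-0.01).

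The deposited peak lists, made per array, were read for the 73 member accessions. Peaks were listed for 14, 5 and 6 members on Plakoglobin arrays 1 to 3, against 13%, 13.4% and 8.44% of all accessions, that is 19.2%, 6.85% and 8.22% of the members. On β-catenin arrays 1 to 3 there were 4, 0 and 11 members with a peak, against 2.42%, 2.38% and 9.33% of all. At least 1 Plakoglobin peak was listed for 24 members (32.9%, against 30% of all accessions) and at least 1 β-catenin peak for 14 (19.2%, against 13.4%). Without Plakoglobin 1 the first count was 11, and without β-catenin 3 the second was 4, with the shares of all accessions not counted. Members had a peak on any array in 36 cases, 49.3% against 38.3% of all accessions. Recurrence was rare. Plakoglobin peaks on at least 2 arrays were listed for 1 member, Cenpq, against 4.41% of all accessions. β-catenin peaks on at least 2 arrays were listed for 1, Pcna, against 0.711% of all. Peaks of both antibodies were listed for 2, Orc3 and Cenpa, against 5.11% of all. Over the 6 arrays 4 members had a peak on more than 1, which is 5.48% against 8.83% of all accessions.

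These 4 were looked at by position, in the coordinates of the deposited lists. At Orc3 a Plakoglobin 1 peak at chr4:34706301-34706480 and the β-catenin 1 peak at chr4:34706461-34706847 shared 20 bp, centred 186 bp downstream and 77 bp upstream of the start site, and both are also listed under the neighbouring gene Rarsl. This Plakoglobin 1 peak scored 1.93. A stronger one at chr4:34705841-34706040, with a score of 4.7, did not overlap the β-catenin 1 peak. The β-catenin 1 peak scored 0.62, rank 396 of 436 on its array, at a false discovery rate of 0.127. At Cenpa the Plakoglobin 3 peak was centred 1184 bp and the β-catenin 3 peak 389 bp upstream, and they did not overlap. At Pcna the β-catenin 1 peak lay 4 bp downstream and the β-catenin 3 peak 860 bp upstream, also apart. At Cenpq the Plakoglobin 1 peak lay 2502 bp upstream and the Plakoglobin 3 peak 39 bp downstream, and both are also listed under Mut. So 1 of the 4 had peaks that overlapped between arrays, against 57.8% of the 1987 accessions with peaks on at least 2 arrays.

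The 43 peak entries of the members, 28 with Plakoglobin and 15 with β-catenin, were centred between 5138 bp upstream and 888 bp downstream of the start site. Within 500 bp lay 24 of them (55.8%), against 53.0% of all entries. Entries with a deposited false discovery rate of up to 0.05 numbered 33 (76.7%), against 69.0% of all entries. Several peaks are listed under a neighbouring gene as well, among them Cstf1 with Aurka, Ap4m1 with Mcm7, Gpr175 with Mcm2, Prpf38a with Orc1 and Nr1h2 with Pold1, so a peak need not belong to the replication or mitosis gene. A listed peak did not require a high ratio of the promoter, as Orc3 on β-catenin 1 shows (0.00).

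**Figure D5:**
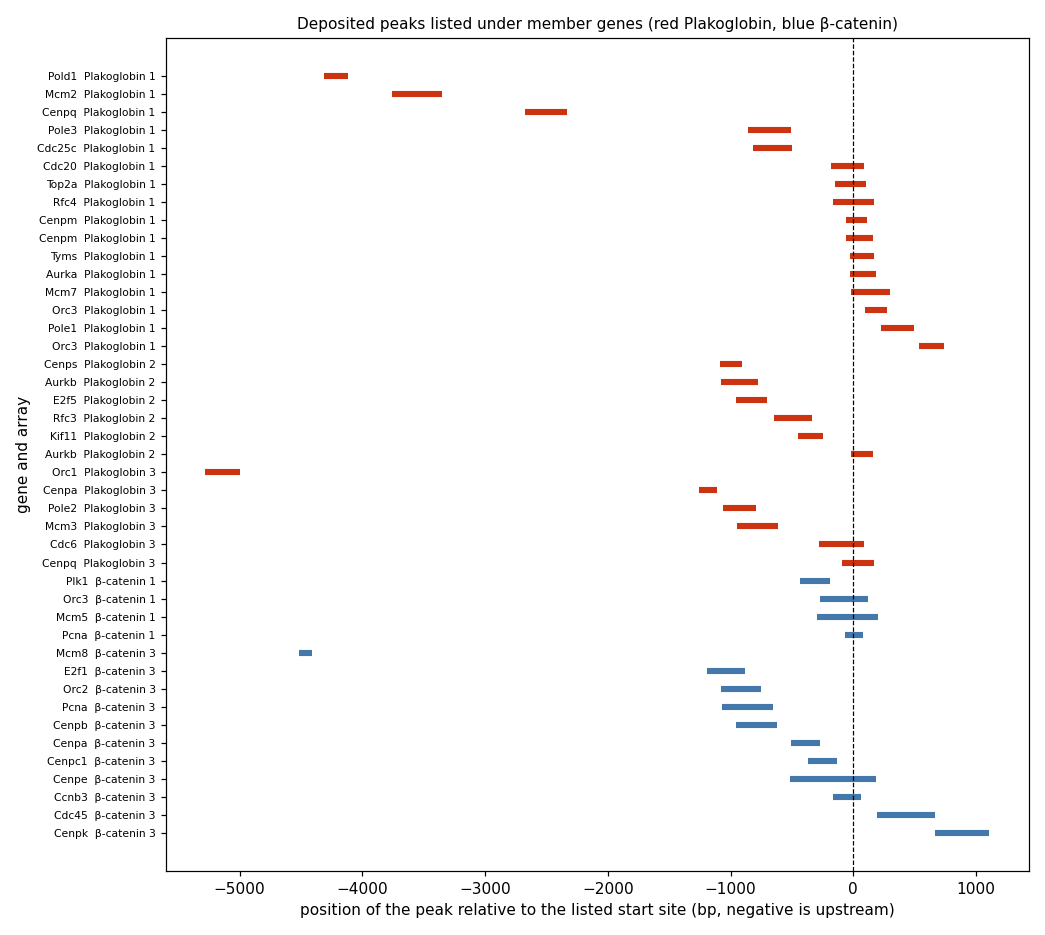
Deposited peaks listed under members, 1 line per peak entry (vertical axis, gene and array), drawn to scale against the listed start site (horizontal axis, bp, negative upstream), Plakoglobin in red and β-catenin in blue. Most peaks sit near the start site, 5 lie beyond 2000 bp upstream, and β-catenin 2 has none.

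Other genes of the same pathways were counted beside the members. Of 50 such genes, among them licensing factors, single-strand binding proteins, spindle checkpoint and condensin genes, 37 had a row, 39 rows in all. With Plakoglobin 25 of the 39 had a mean above 0 (64.1%, median 0.02) and with β-catenin 24 (61.5%, median 0.03). Their array medians were 0.04, -0.15 and 0.02 with Plakoglobin, against 0.03, -0.11 and 0.01 with β-catenin, again lowest on the arrays numbered 2.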

How the data were processed

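Per the labels, each of 6 two-colour NimbleGen promoter arrays carried Cy5 ChIP DNA and Cy3 input DNA, with 3 arrays per antibody. The deposited log2 ratios are means over the probes of a promoter, per the file headers, and no source used here states how the probes were normalized. The per-array mean files and the table of the whole series held the same mean values (largest difference 0). The deposited peak lists, 1 for each array, carry a score on an unstated scale and a q-value (false discovery rate) of up to 0.199, per the file headers. No source used here states the genome build of peak positions and start sites.

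Of 26275 rows, 75 had no value and 26200 were used. Of the 75 member rows 63 were named through their accession in a RefSeq gene table of GRCm38.p6 and 12 through the symbol in the files, and 18 carried an older name there. Each array was centred on its median. A group-means model on all 6 arrays was fitted with limma 3.58.1 in R 4.3.3 (eBayes with trend, two-sided), and p-values were adjusted over all 26200 rows by Benjamini-Hochberg at 0.05. A single row cannot reach an exact permutation p below 0.1 with 3 arrays against 3, so rows were tested in the model alone. The small number of arrays limits the precision of every value. The model was run on simulated data in which 200 promoters were shifted between the antibodies. With each promoter's own spread it called 0% of them at a log2 shift of 1, 0% at 2 and 84.5% at 4. With the median spread at every promoter it called 30%, 99.5% and 100%. The absence of calls therefore does not show that differences of the size printed here are absent. Python 3.11.15, pandas 2.3.3, numpy 2.4.6 and matplotlib 3.10.9 did the rest.

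The members, roles, gene lists and tests were chosen with earlier results of these data known. Values on every array were given for members with recurrent or shared peaks, the 5 highest and 5 lowest by mean or difference, those of 1 sign on all arrays, and a list of cell cycle genes. The other members were chosen for naming after their values were seen. Replicate numbers come from the sample titles. Deviations from the group means correlated at 0.20, 0.23 and 0.22 between same-numbered arrays, and at -0.15 to -0.05 between others. The deviations of an antibody sum to 0 at each row, so positive same-number values force negative ones among the others. The numbers were used to pair arrays in the comparisons by number and in the replicate block only. The main model did not pair the arrays, so its SEs, intervals and p-values leave the number out.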

Additional observations from a re-analysis of the deposited data

Results flagged for a closer look

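Mcm8, a helicase gene of recombination repair, was set apart because all 3 Plakoglobin arrays lay above the median promoter and all 3 β-catenin arrays below it, without limma calling the difference. The share of all rows with this split was not counted, so the flag does not show that it is rare. Such a row must have no overlap with Plakoglobin on top, which was seen at 4% of the members and 2.57% of all rows. The difference of 0.63 (SE 0.24) had an unadjusted limma p of 0.0303 and an adjusted p of 1. Over the alternatives run, leaving out 1 array included, it ran from 0.29 (median over probes) to 0.82 (scaling by the median absolute deviation) and the adjusted p in limma from 0.89 to 1, so it never passed. The unadjusted limma p of the difference was 0.19 with the median over probes and 0.0542 without centring. It was 0.0664 without Plakoglobin 1, and 0.117, 0.0633 and 0.0844 without β-catenin 1, 2 and 3. Without Plakoglobin 2 or 3 it stayed below 0.05 (0.0177 and 0.0394).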

How the results depend on the processing

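Under every alternative run (other centring and scaling, medians over probes, eBayes settings, single-copy accessions, each array left out, the replicate block and, added after the data were seen, both arrays numbered 2 left out), 0 members and 0 promoters passed in limma, counts of 0 that do not show stability. Of the other 111 recomputed counts and medians 91 stayed within 1 SD between arrays or within 1.5 times the reported count, and 20 moved further. Some of the 91 could not move, since leaving out an array of 1 antibody keeps the count and median of the other. The tally is therefore no measure of stability. With the replicate number as a block 0 members passed in each comparison, and it changed no adjusted call. Without centring the members above 0 numbered 70 for Plakoglobin, at a median of 0.36, and 65 for β-catenin, at 0.29. The 0 was then set by a normalization that is not given. Of all 26200 rows, 23838 were above it with Plakoglobin (median 0.341) and 22854 with β-catenin (median 0.267). Most rows of any kind thus lay above 0 without centring, and these counts do not set the members apart. Peaks within 500 bp of the start site were listed for 14 members with Plakoglobin and 9 with β-catenin, and recurred for 0 and 0. With the top 330 peaks of each array there were 6 and 2, and 0 and 0 recurred. The recurrent Plakoglobin peak count was also 0 at a false discovery rate of 0.05 and with the symbols of the files only. The share of all accessions was not counted under these limits or with an array left out. These peak counts therefore describe the members and do not set them apart. Leaving out 1 array gave 35 to 57 members above 0 with Plakoglobin (medians -0.02 to 0.12) and 35 to 41 with β-catenin (-0.01 to 0.03). The median difference then ran from -0.08 to 0.09. Members with a peak on at least 1 remaining array ran from 11 to 19 with Plakoglobin (lowest without array 1) and from 4 to 14 with β-catenin (lowest without array 3), and recurrent peaks from 0 to 1 with either antibody. Cenpq was lost without Plakoglobin 1 or 3 and Pcna without β-catenin 1 or 3. The cause was not tested. The few arrays and the probe spread limit all single rows.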

Other observations

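Rows under synonyms were not counted as members. The row named Ki-67, whose accession belongs to Mki67, the widely used proliferation marker, had Plakoglobin values of 1.37, 0.18 and -0.02 and β-catenin values of 0.02, 0.81 and -0.03, with a peak on Plakoglobin 1. Its highest value stood on array 1 with Plakoglobin and on array 2 with β-catenin. The row named 2610510J17Rik, which is Cenpn, had means of -0.11 ± 0.19 with Plakoglobin and -0.30 ± 0.40 with β-catenin (SD, n = 3 each) and no peak.

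Peaks were also listed under genes of these families whose accessions had no row with values under the names searched. E2f8, a repressor of the E2F family, had a Plakoglobin 2 peak 71 bp upstream of its start site, and Cdc25b, a phosphatase of mitotic entry, had one 234 bp upstream. Cenpf, a kinetochore protein, had a peak 29 bp downstream on Plakoglobin 1 and one 275 bp upstream on Plakoglobin 2. Rfc5, a clamp loader subunit, had a β-catenin 3 peak 69 bp downstream. None of these was listed with both antibodies.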
